A study of Drosophila melanogaster with 8 samples.

Results

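The effect of Snail guides was measured as the difference between the 4 libraries that received guides to sna and the 4 that did not, with the presence of Twist guides as a covariate. All 8 libraries of the series entered the comparison, and 8029 of the 14161 genes in the tables had enough counts to be tested. The cells were S2R+, a Drosophila line of blood-cell character, transfected in every group with Actin:dCas9-VPR, a Cas9 that binds DNA without cleaving it, joined to a transcriptional activator and expressed from an actin promoter. The side with Snail guides held 2 libraries that received a pool of 5 guides to the region upstream of sna, and 2 libraries that received this pool together with a pool of 5 guides to twi. The side without Snail guides held 2 libraries with the twi pool alone and 2 control libraries, titled Quas, whose guides the sample labels place at a luciferase reporter promoter and the treatment protocol calls non-targeting. The sources used here give neither the share of cells that took up the plasmids nor the amount of each pool when both were used. In bulk RNA, fewer responding cells and a smaller response per cell cannot be told apart.

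Snail is a zinc-finger transcription factor that binds E-box sequences and is best known as a repressor: in the ventral embryo it keeps ectodermal and neural genes silent in the presumptive mesoderm, through co-repressors such as CtBP and Ebi. Twist, a bHLH activator, works upstream of and together with Snail in that tissue, where both are needed for the inward folding of the mesoderm. Its spreading afterwards depends on the FGF receptor Heartless and the FGF8-like ligands Pyramus and Thisbe.

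Total counts were 10752993 to 13351166 per library, and 9990 to 10393 genes had at least 1 count. Levels below are CPM, counts scaled to a common library size after TMM normalisation, which adjusts library sizes to the bulk of genes. The control pair was the most spread of the 4 groups: the variance between its replicates exceeded counting variance by a factor of 25.1, compared with 3.63 for Snail guides, 6.52 for Twist guides and 3.49 for both pools. The deviation from the mean of all libraries correlated across genes with transcript length at -0.29 and 0.27 (Spearman) in the control libraries, -0.34 and -0.25 with Snail guides, 0.29 and 0.00 with Twist guides, and 0.26 and 0.06 with both pools. The Snail effect correlated with transcript length at -0.15 across 7922 genes, which are not independent replicates, and at -0.24 without and 0.04 with Twist guides. Of hemocyte genes, srp stood at 127 to 176 CPM, Pvr at 358 to 490 CPM and crq at 163 to 202 CPM over the 8 libraries, while the hemocyte markers He, eater and NimC1 had at most 5 counts in any library.

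sna was present in every library that received its guides and nearly absent elsewhere. It had 0 and 2 counts in the control libraries and 0 and 1 with Twist guides, against 1079 and 1218 counts with Snail guides and, given both pools, 1485 and 1320. These were 97.2 and 102 CPM with Snail guides and, given both pools, 124 and 122 CPM, so the sides did not overlap. Summed over libraries, 5102 counts stood against 3, a ratio of 1790 (95% counting interval 613 to 8700, which covers counting error only). twi was at 0 counts wherever its guides were absent, so its Snail effect rests on the 4 libraries with Twist guides alone. There it stood at 26.3 and 28.2 CPM without Snail guides and at 13.7 and 12.7 CPM with them, a ratio of 0.484 (counting interval 0.421 to 0.554). With Twist guides as a covariate, the call on twi (adjusted p = 0.033, edgeR) was lost without Twist replicate 1 or 2, and without replicate 1 or 2 of both pools. The contrast of both pools with Twist libraries, in a fit of 4 groups, gave -1.05 on the log2 scale (adjusted p = 0.0071, edgeR). Any Snail effect seen in the presence of Twist guides therefore came with less twi RNA, and the 2 cannot be told apart in these libraries.

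**Figure D1:**
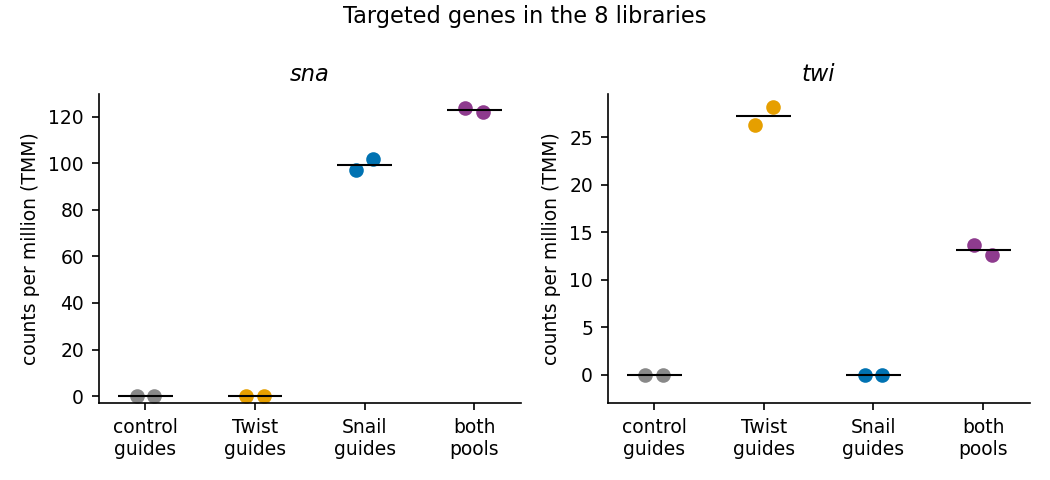
Levels of sna and twi in CPM (vertical axes) in the 8 libraries, by guide group; each point is 1 library and each bar the mean of 2. sna was at 97.2 to 124 CPM in the 4 libraries with its guides, and twi was lower with both pools than with Twist guides alone.

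Snail guides changed few genes when all 8 libraries were fitted together, and of these more rose than fell. Of 8029 genes, 28 passed the test at an adjusted p under 0.05 (0.349%; edgeR quasi-likelihood, Benjamini-Hochberg), 20 higher (0.249%) and 8 lower (0.0996%), with 1124 at an unadjusted p under 0.05. Besides the targeted genes, these were 19 rises and 7 falls. Both the count and its direction depended on single libraries: 9 genes were called (8 higher, 1 lower) without replicate 1 of both pools and 345 (168 higher, 177 lower) without control replicate 1. Fitted on the both-pool and Twist libraries alone, 329 were higher and 381 lower. The rises included the Snail family gene esg, the FGF ligand pyr, the zona pellucida domain gene qsm, the growth factor Idgf4 and the G protein subunit Ggamma30A. Changes of more than 1 on the log2 scale were seen for 10 of the 20 rises and 3 of the 8 falls. Of the rises, 6 (sna among them) had a mean under 1 CPM without Snail guides. Of the falls, twi and nvy had their level without Snail guides almost wholly from the Twist libraries, while the falls other than these and CG3376 were in genes well expressed with control and with Twist guides. All 4 libraries with Snail guides lay beyond all 4 without for 24 of the 28 genes; over all genes tested, 3.91% lay wholly above and 2.76% wholly below. Within each Twist background taken alone, both libraries with Snail guides lay beyond both without, in the same direction, for 27 of the 28. Of all genes, 6.91% did so upward and 6.33% downward. The 28 genes were chosen by a test on these same libraries, so their separation, here and gene by gene below, adds no support to the calls.

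**Figure D2:**
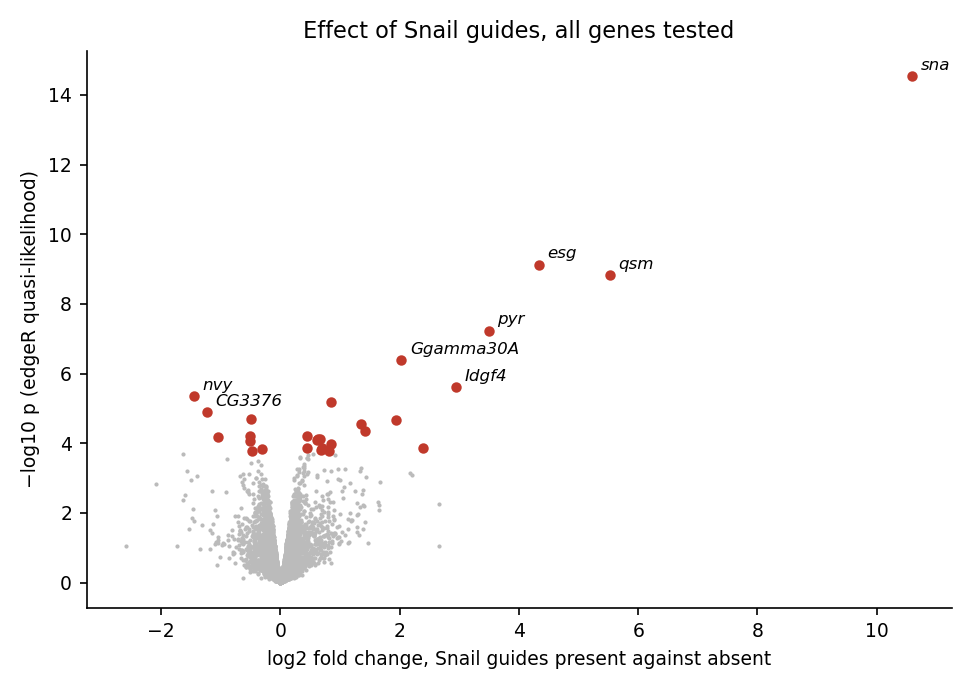
Log2 fold change for Snail guides present against absent (horizontal axis) and −log10 of the unadjusted p (vertical axis) for the 8029 genes tested; red points are the 28 genes with an adjusted p under 0.05. The 20 red points on the right reach further from 0 than the 8 on the left.

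esg encodes a zinc-finger repressor of the Snail family that keeps intestinal stem cells and imaginal cells undifferentiated. It stood at 0.18 and 0.19 CPM in the control libraries and 0.61 and 1.03 CPM with Twist guides, against 8.20 and 7.84 CPM with Snail guides, and 12.6 and 13.5 CPM when both pools were given. Every library with Snail guides was well above every library without, and the log2 rise was 4.34 ± 0.24 (SE; adjusted p = 3.0e-06). The gene lies on chromosome 2L at 15333866 to 15336138 (BDGP6.54, Ensembl), 140 kb from sna at 15476593 to 15478260, and is the nearest tested gene on that side. On the other side the nearest tested gene, lace, a subunit of serine palmitoyltransferase, stood at -0.04 ± 0.05 (adjusted p = 0.76). Of the 28 tested genes within 500 kb of sna, a window chosen after earlier results were seen, esg alone was called. The other Snail family genes, wor and scrt, which act in neural precursors and neurons, had 2 counts and 1 count in all 8 libraries together.

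qsm (listed in the tables under an older name; chromosome 2R, 20563034 to 20583591) encodes an extracellular zona pellucida domain protein known for its part in the light response of the circadian clock. Its level was 0.64 and 0.28 CPM with control guides and 1.07 and 0.15 CPM with Twist guides, and rose to 28.6 and 31.3 CPM with Snail guides and, given both pools, 22.1 and 21.0 CPM. The groups were far apart, at a log2 rise of 5.53 ± 0.27 (adjusted p = 4.1e-06), the largest after sna among the genes called.

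pyr (chromosome 2R, 11712263 to 11726345), which encodes the ligand Pyramus, stood at 0.37 and 0.65 CPM with control guides and 0.61 and 1.10 CPM with Twist guides. It was at 8.92 and 11.4 CPM with Snail guides and, given both pools, at 6.58 and 5.91 CPM, a log2 rise of 3.49 ± 0.29 (adjusted p = 0.00012). The 4 libraries with Snail guides were all higher, those with Twist guides as well being the lower 2 of the 4. ths, the gene of the related ligand Thisbe, was barely detected, at 0.27, 0.19, 0.53 and 0.15 CPM without Snail guides and 0.63, 1.08, 1.25 and 0.65 CPM with them. The sides of ths did not overlap, but the difference was not called (log2 1.64 ± 0.47, adjusted p = 0.20).

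Idgf4 (chromosome X, 9927973 to 9930948) encodes a secreted chitinase-like growth factor first found in imaginal disc cell cultures. It stood at 0.82 and 1.30 CPM with control guides, 0.91 and 1.10 CPM with Twist guides, 15.6 and 13.5 CPM with Snail guides, and 3.83 and 3.60 CPM after both pools. The sides did not overlap, and the level with both pools was below that with Snail guides alone. The rise was 2.94 ± 0.32 in the additive model (adjusted p = 0.0034). None of the other 5 Idgf genes was called in the additive model, where they ranged from -0.38 (Idgf1) to 0.14 (Chit, now Idgf6). In the libraries with Twist guides Idgf3 was called, at -0.59 (adjusted p = 0.041), and stood at 0.15 without them (0.58). The difference between these 2 values was not called (adjusted p = 0.094).

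Ggamma30A, which encodes a G protein gamma subunit of photoreceptors, stood at 2.38 and 1.39 CPM with control guides and 2.29 and 1.40 CPM with Twist guides, and at 6.49, 7.51, 8.33 and 8.13 CPM in the libraries with Snail guides. All 4 libraries with Snail guides were above all 4 without, a rise of 2.03 ± 0.20 (adjusted p = 0.00066). CG13928 went from 15.8, 14.0, 23.5 and 17.2 CPM to 28.8, 28.7, 31.1 and 37.4 CPM, a smaller rise of 0.84 ± 0.11 (adjusted p = 0.0064) in a gene that was well expressed on both sides. These, with sna, qsm, esg, pyr, Idgf4 and the falling gene nvy described below, were the 8 genes still called whichever library was omitted.

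The remaining rises were weaker calls. Among secreted proteins and their partners, tok, the Tolloid-related metalloprotease that can cleave the Dpp antagonist Sog, rose by 0.84 ± 0.14, and daw, an Activin-like ligand, rose by 0.44 ± 0.08. tok was at 21.3, 15.1, 23.3 and 15.5 CPM without Snail guides and 33.1, 30.0, 37.8 and 34.2 CPM with them, and daw at 35.7, 29.9, 29.0 and 27.0 against 44.0, 40.2, 39.7 and 41.0 CPM; neither gene overlapped between sides. Of metabolic and signalling genes, Tret1-2, named for trehalose transport, rose by 0.44 ± 0.07 and the glutathione transferase gene GstD5 by 0.63 ± 0.11. Pka-C3, a cAMP-dependent kinase subunit gene, rose by 0.67 ± 0.12, and the Skp1-related gene skpB by 0.69 ± 0.12. Tret1-2 was the most abundant of these genes, at 72.3 to 101 CPM without and 109 to 121 CPM with Snail guides. Pka-C3 overlapped between sides, since Twist replicate 1 (10.6 CPM) was above Snail replicate 2 (9.93 CPM). Genes known here only by their symbols were CG31235 (now naz, 2.39 ± 0.43), CG32372 (now ltl, 1.94 ± 0.28), CG4301 (1.42 ± 0.22) and CG31516 (1.35 ± 0.20). So were CG2528 (0.81 ± 0.15), CG8147 (now phu, 0.66 ± 0.11) and CG3624 (now babos, 0.61 ± 0.10). CG31235 rests on few counts, 2 to 4 per library without Snail guides and 8 to 25 with them. CG32372 had 5 to 14 counts without and 24 to 40 with them.

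nvy, which encodes a transcriptional co-repressor of the ETO family, and CG3376 were high with Twist guides and lower when Snail guides were added. nvy stood at 26.0 and 27.0 CPM with Twist guides, 9.999 and 7.02 CPM after both pools, 2.29 and 1.95 CPM with control guides and 1.26 and 1.25 CPM with Snail guides. CG3376 stood at 107 and 102 CPM with Twist guides, 41.7 and 33.8 CPM after both pools, 11.0 and 14.9 CPM with control guides and 6.94 and 7.93 CPM with Snail guides. Within each background both libraries with Snail guides were below both without, and the falls were -1.44 ± 0.18 for nvy (adjusted p = 0.0050) and -1.23 ± 0.15 for CG3376 (adjusted p = 0.012). In the libraries without Twist guides, where twi had 0 counts, the falls of -0.75 (nvy) and -0.79 (CG3376) were not called (adjusted p = 0.34 and 0.10). The difference between the backgrounds was not called for either gene (edgeR, adjusted p = 0.32 for nvy and 0.20 for CG3376).

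The other falls were small and in genes expressed in every library. egr, which encodes the TNF ligand Eiger, an inducer of JNK signalling, went from 48.8, 62.5, 55.0 and 64.4 CPM to 37.4, 37.5, 46.2 and 44.7 CPM (-0.48 ± 0.09, adjusted p = 0.049). CG6805 fell by 0.50, CG8547 by 0.51, CG33926 (now Srg3) by 0.52 and lute by 0.30 on the log2 scale, with adjusted p from 0.016 to 0.047. In each of these 5 genes the 4 libraries with Snail guides were all below the 4 without, although for CG6805 the nearest libraries were both at 48.1 CPM.

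**Figure D3:**
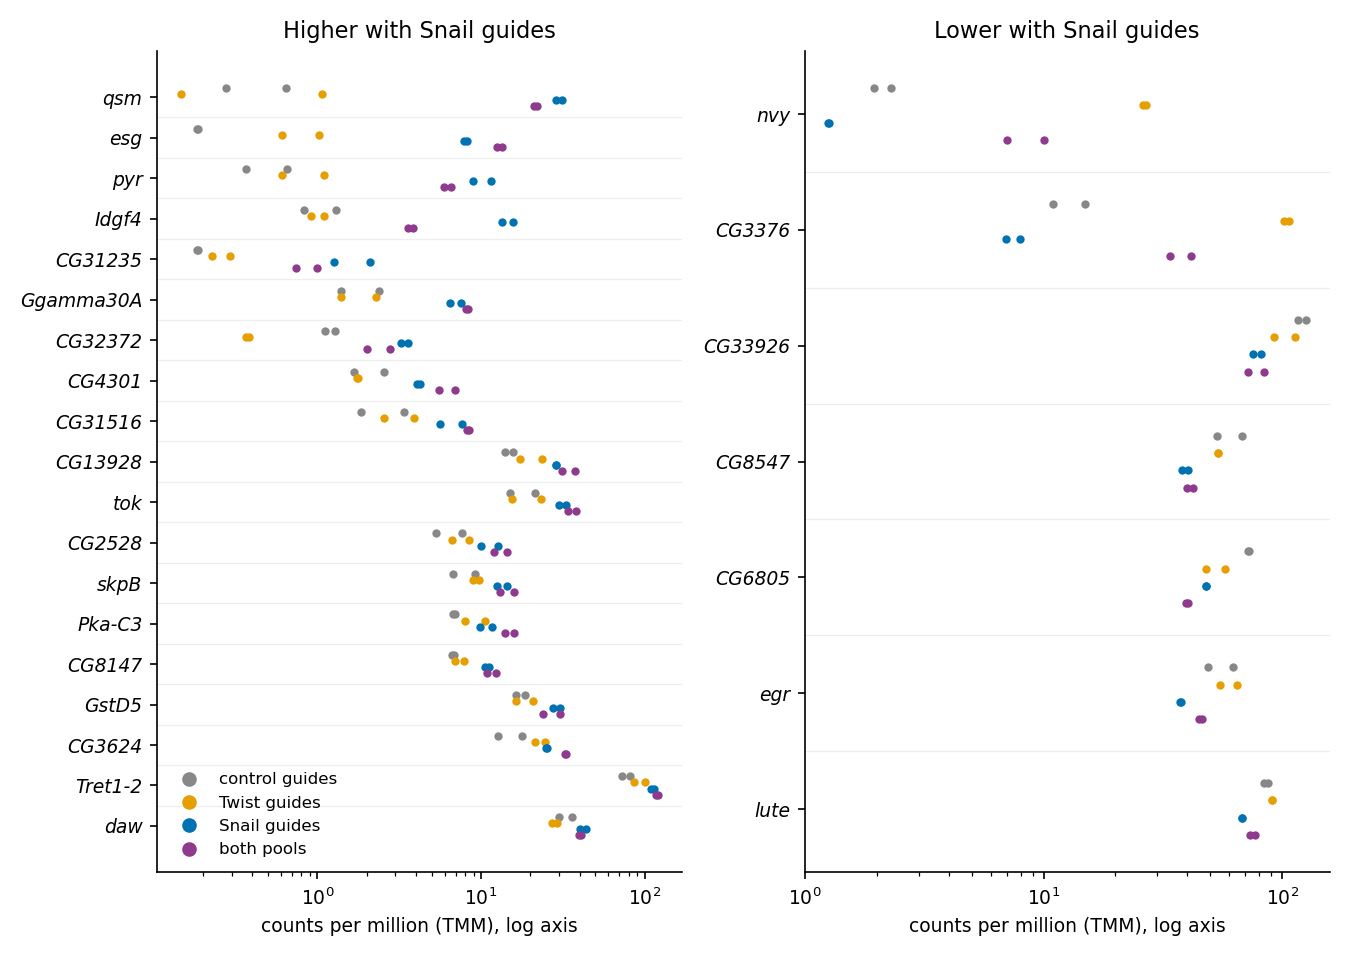
Level of the 19 genes that rose (left) and the 7 that fell (right) besides the targeted genes, in CPM on log axes; each point is 1 of the 8 libraries, coloured by guide group. Except for Pka-C3, grey and orange points lie to the left of blue and purple ones for the rises, while nvy and CG3376 are highest with Twist guides.

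Most calls outside the strongest genes depended on single libraries. With each of the 8 libraries omitted in turn, 17 of the 28 genes were lost in at least 4 fits. Omitting Snail replicate 1 or 2 lost 16 genes each, Twist replicate 1 lost 10 and Twist replicate 2 lost 16. The first both-pool library lost 19 and the second 17, control replicate 2 lost 12 and control replicate 1 lost 0. CG32372 was lost without replicate 1 of both pools (adjusted p = 0.059), and CG3376 without Twist replicate 2 (0.057) or replicate 1 of both pools (0.075). CG31516 was lost without Snail replicate 2 (0.092) or replicate 1 (0.075) or 2 (0.064) of both pools, and CG6805 without Snail replicate 1 (0.078) or 2 (0.095) or replicate 1 (0.059) or 2 (0.052) of both pools. CG33926, CG3624, GstD5, tok and Tret1-2 were lost in 5 fits each (highest adjusted p of each from 0.11 to 0.15), CG4301, CG8547 and egr in 6 (0.10 to 0.17), and CG2528, CG31235, CG8147, daw, lute, Pka-C3 and skpB in 7 (0.165 to 0.192). The log2 change of each of these genes kept its sign in every such fit.

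The effect was measured once without Twist guides (Snail against control libraries) and once with them (both pools against Twist libraries). It could thus be compared between pairs of groups that share no library. Both sets of calls used 1 estimate of spread from all 4 groups, so they are not fully independent. Without Twist guides 26 genes were called (0.324%), 18 higher (0.224%) and 8 lower (0.0996%); with Twist guides 84 were called (1.05%), 40 higher (0.498%) and 44 lower (0.548%). In both, 7 genes rose: sna, qsm, esg, pyr, Idgf4, Ggamma30A and CG13928. Counting the target sna, they were 38.9% of the rises without and 17.5% of the rises with Twist guides. Of the 18 rises without Twist guides, 15 were above 0 with them, with a median of 0.67 there against 1.62 without; genes were chosen on the second value, so a smaller first value is no sign of a weaker effect. Of the 8 falls without Twist guides, 6 were below 0 with them, 4 at an unadjusted p under 0.05 and none called by edgeR, and the median went from -0.59 to -0.13. In the other direction, 21 of the 40 rises and 22 of the 44 falls with Twist guides had the same sign without them, with medians of 0.68 against 0.13 for the rises and -0.66 against -0.01 for the falls. Over all genes tested, the target sna included, the sign was shared by 52.1%. Across these genes, which share the libraries of their background, fold changes in the 2 backgrounds had correlations of 0.21 (Pearson) and 0.05 (Spearman). sna, raised by its own guides in both, stood at 9.92 without and 11.3 with Twist guides.

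The size of the leading rises differed between the backgrounds by amounts that were not called after adjustment over all genes tested. The unadjusted p of the difference (edgeR) was 0.00079 for Idgf4, 0.022 for pyr, 0.042 for esg, 0.30 for qsm and 0.52 for Ggamma30A. The log2 rise was 5.36 ± 0.37 without and 3.97 ± 0.25 with Twist guides for esg (adjusted p of the difference 0.32), 4.30 ± 0.34 and 2.85 ± 0.31 for pyr (0.26), 3.76 ± 0.25 and 1.87 ± 0.29 for Idgf4 (0.094), 5.99 ± 0.37 and 5.14 ± 0.34 for qsm (0.64), and 1.88 ± 0.28 and 2.16 ± 0.27 for Ggamma30A (0.79). The esg rises rest on low references, 2 and 2 counts with control guides and 8 and 14 with Twist guides. References were also low, in the same order, for qsm (7, 3, 14 and 2 counts), pyr (4, 7, 8 and 15) and Idgf4 (9, 14, 12 and 15). The level of esg was higher with both pools (12.6 and 13.5 CPM) than with Snail guides alone (8.20 and 7.84 CPM). sna itself was at 97.2 and 102 CPM without and 124 and 122 CPM with Twist guides. The difference between the backgrounds was called for 14 of 8029 genes (0.174%; 8 higher with Twist guides, 6 lower; 1174 at an unadjusted p under 0.05).

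htl, the gene of the receptor Heartless, was the clearest of those 14. It stood at 1.65 and 0.84 CPM with control guides and 8.11 and 8.18 CPM with Snail guides, but at 19.9 and 18.1 CPM with Twist guides and, given both pools, 19.9 and 16.9 CPM. Snail guides thus raised it by 2.70 where Twist guides were absent (adjusted p = 0.00019), and it stood at -0.04 where they were present (adjusted p = 0.91). The difference of -2.74 was called (adjusted p = 0.0059) and held whichever of the 8 libraries was omitted (adjusted p up to 0.047). The additive effect on htl, 0.72 ± 0.50 (adjusted p = 0.56), therefore averages unlike values. The receptor and its ligand gene pyr were thus both above control with Snail guides alone, while pyr but not htl was higher with both pools than with Twist guides alone.

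**Figure D4:**
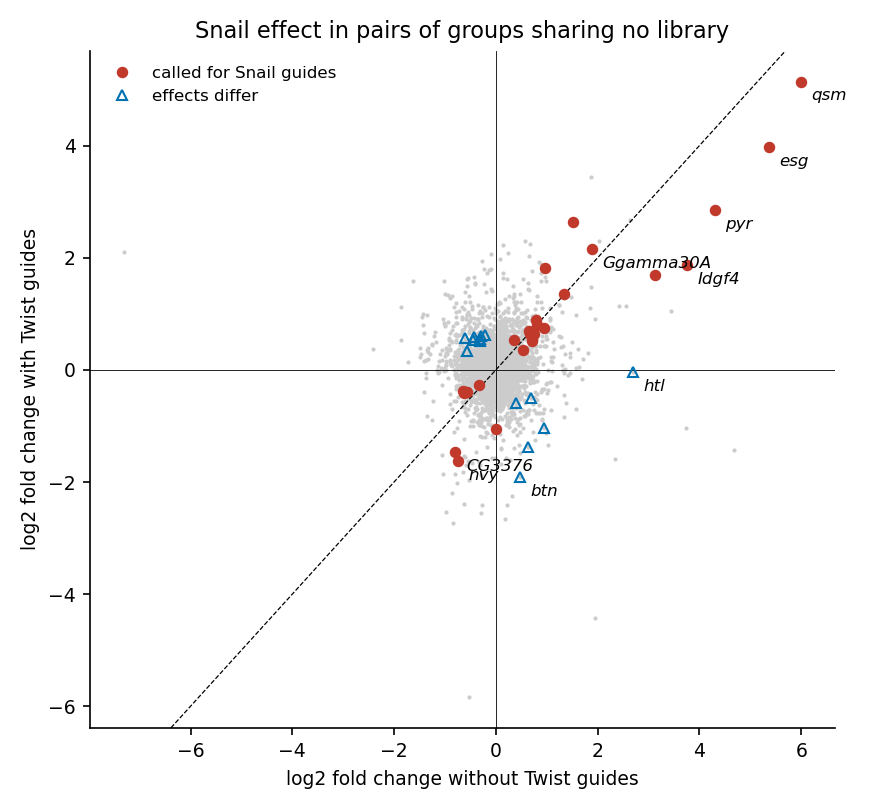
Log2 fold change for Snail guides in libraries without Twist guides (horizontal axis) and with them (vertical axis) for the genes tested other than sna; red circles are genes called in the additive model, blue triangles the 14 genes whose effects differed, and the dashed line marks equal effects. qsm, esg, pyr and Idgf4 lie at the upper right, and htl lies on the horizontal axis at 2.70.

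Lists of developmental and housekeeping genes, 20 in all, mostly stayed near the median of all genes tested, which was -0.002 on the log2 scale. Among 6 tested genes of the Snail family and its co-repressors, esg rose and 5 were not called (median -0.01): the co-repressor genes CtBP, ebi, Smr, gro and Rpd3 lay between -0.19 and 0.07. Of 8 tested genes listed here as repressed by Snail in the embryo, pyr rose, 7 were not called and none fell (median -0.01). Besides ths, the Dpp antagonist gene sog stood at 1.06 (adjusted p = 0.14), the E-cadherin gene shg at -0.28 (0.375) and the apical polarity gene crb at -0.36 (0.42). The other 7 members of that list, sim, vnd, Tom, wntD, l(1)sc, Dl and ind, had at most 12 counts in any library, so a fall could not have been detected at this depth.

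In FGF and EGF receptor signalling, pyr rose and 21 of 22 tested genes were not called (median -0.04). Of 12 mesoderm and Twist target genes none was called in the additive model (median -0.03). Without Twist guides, however, htl (2.70) and the integrin gene if (1.36, adjusted p = 0.036) were higher. With them if stood at 0.02, but unlike for htl its difference between the backgrounds was not called (adjusted p = 0.10). Traf4 stood at 0.27 (adjusted p = 0.15) and the muscle factor gene Mef2 at -0.28 (0.24). In Dpp signalling, tok rose and 12 of 13 were not called (median 0.07), with the antagonist sog at 1.06 and its relative cv-2 at 0.30. In the JNK and cell death list, egr fell and 15 of 16 were not called (median -0.05); the downstream gene puc stood at 0.02 and rpr at -0.26.

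In the additive model, where 0.349% of all genes were called, no member was called in the lists of cell junction and polarity (23 tested, median -0.05), muscle differentiation (14, -0.03), integrins, matrix proteases and basement membrane (27, -0.06), Notch pathway and E(spl) genes (13, -0.04), innate immunity (16, -0.06), heat shock and unfolded protein response (17, 0.08), cell cycle and DNA replication (25, -0.07), ecdysone response (11, -0.02) or lysosomal cathepsins and mannosidases (5, 0.02). Members with low adjusted p included PGRP-LB, an amidase that degrades peptidoglycan, at -0.90 ± 0.18 (adjusted p = 0.060), crc, the Drosophila ATF4 gene, at 0.32 ± 0.06 (0.060), the matrix glycoprotein gene BM-40-SPARC (now SPARC) at -0.69 ± 0.14 (0.10) and Timp, the inhibitor of matrix metalloproteases, at 1.04 ± 0.27 (0.15). PGRP-LB had 1 to 5 counts in each library without Twist guides, so its value rests on the libraries with them, where it was called at -0.89 (adjusted p = 0.033). With Twist guides BM-40-SPARC (-0.92, adjusted p = 0.042) and the metalloprotease gene Mmp1 (-0.55, 0.027) were also called. Without them tmod was called (-0.58, 0.045). In the other background BM-40-SPARC stood at -0.46, Mmp1 at 0.10 and tmod at -0.24. The difference between backgrounds was not called for BM-40-SPARC (adjusted p = 0.38), Mmp1 (0.093) or tmod (0.32). Timp stood at 2.97 and 3.59 CPM with Snail guides, 1.58 and 1.48 CPM after both pools, and 1.02 to 1.28 CPM in the libraries without. Others with the smallest p of their lists were l(2)gl (-0.38, adjusted p = 0.17) and Nrg (0.21, 0.22), key (-0.29, 0.19), Hsc70-3 (0.22, 0.16), nct (-0.24, 0.33), H (-0.14, 0.36), cdc2 (-0.19, 0.28), CycB3 (-0.17, 0.31), Eip71CD (-0.41, 0.40), Hr46 (-0.66, 0.50), Cp1 (-0.28, 0.36) and CG12163 (0.04, 0.78). Cp1, a cathepsin L gene, stood at -0.59 without (adjusted p = 0.025) and 0.03 with Twist guides (0.90); the difference was not called (0.092).

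The summed levels of 5 lists did not overlap between the sides; such sums are set mostly by the most abundant members, and for single genes 3.91% of all tested lay wholly above and 2.76% wholly below. Over all genes tested, 3965 of 8029 were above 0. The hemocyte list had a median of -0.21, with 9 of 12 tested genes below 0, and its summed level was 1142 to 1231 CPM with Snail guides against 1280 to 1390 CPM without. Pvr, the PDGF and VEGF receptor gene, stood at -0.26 ± 0.06 (adjusted p = 0.14) and the peroxidasin gene Pxn at -0.20 ± 0.06 (0.21). The apical constriction and actomyosin list had a median of -0.10, with 16 of 21 genes not above 0 and a summed level of 17730 to 18820 CPM against 19060 to 20520 CPM. Among its members were the actin gene Act42A at -0.33 ± 0.07 (adjusted p = 0.078) and tmod, whose product caps actin filaments, at -0.41 ± 0.09 (0.11). Neuronal and glial markers summed to 233 to 259 CPM with Snail guides and 238 to 268 CPM without (10 tested, median 0.11, with brp at 0.51 and moody at -0.37), and germline and ovarian soma markers to 792 to 948 and 787 to 1048 CPM (13 tested, median 0.03, with tj at 0.64 and bam at 0.44). No member of these 4 lists was called in the additive model. Summed levels were also apart for FGF and EGF receptor signalling (4278 to 4308 CPM with Snail guides, 4378 to 4556 without), JNK and cell death (2641 to 2786 against 2790 to 2901) and, in the other direction, heat shock and unfolded protein response (18910 to 19390 against 17580 to 18760). Whether the lower hemocyte level has a part in the calls was not tested.

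**Figure D5:**
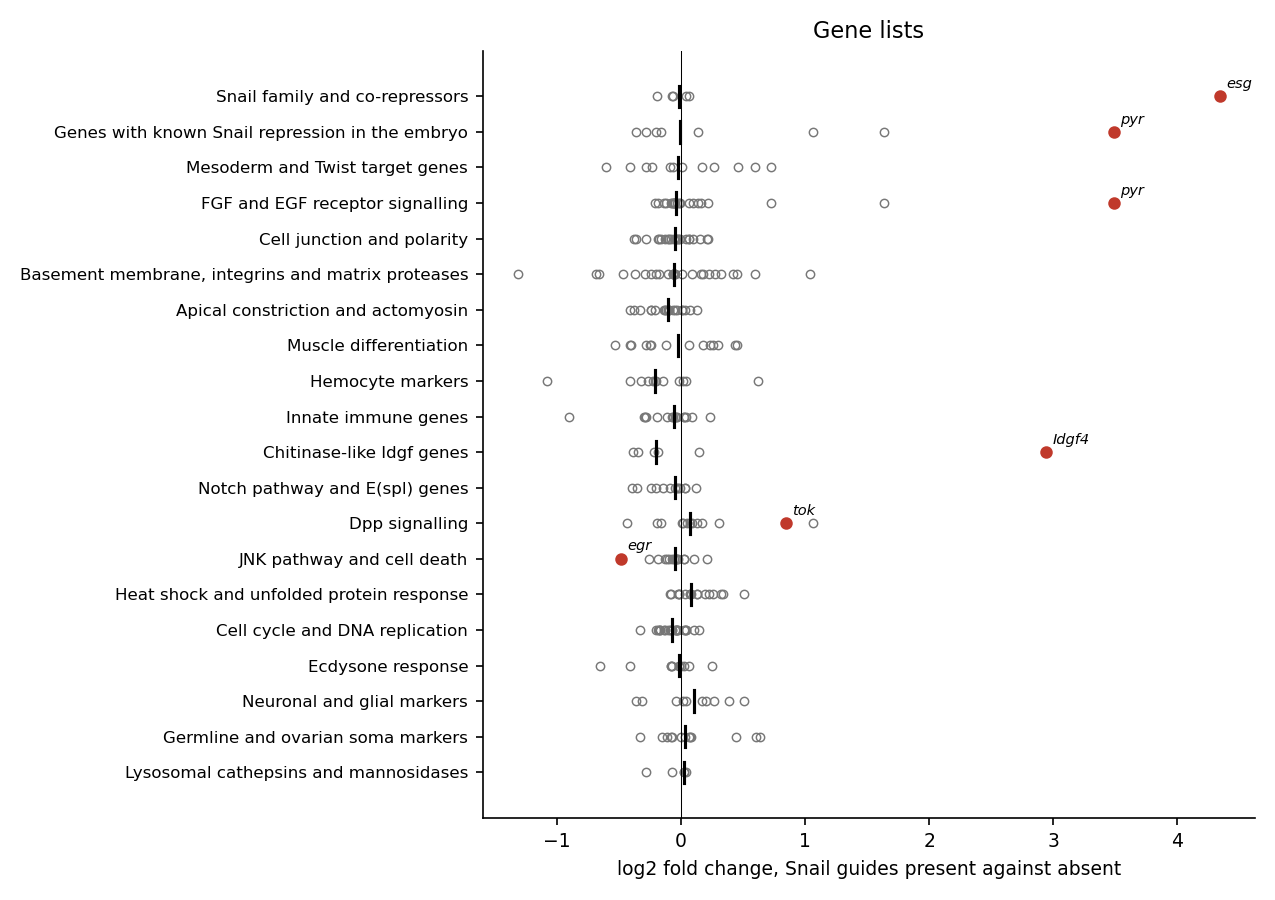
Log2 fold change for Snail guides present against absent (horizontal axis) for the tested members of 20 gene lists; red points are genes called, open points genes not called, and black bars the median of each list. Apart from esg, pyr, Idgf4, tok and egr no member was called.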

How the data were processed

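Messenger RNA was measured in 8 libraries, 2 for each of 4 guide groups, taken from the sample titles. The authors deposited unnormalised counts for each gene symbol in a separate table for every library; TopHat2 (version 2), Bowtie2, HTSeq and DESeq are named in the submitters' processing notes without role or order. The sources used here name no genome build, annotation, strandedness or overlap rule for the counting, so overlapping genes cannot be separated with certainty. Gene identifiers and coordinates came from Ensembl (BDGP6.54), matched by current symbol (10669), older symbol (3239) or not at all (253).

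The tests were run in R 4.3.3 with edgeR 4.0.16 (limma 3.58.1): filterByExpr with a minimum count of 10 (6132 genes left out, at least 99.94% of counts kept), TMM factors of 0.983 to 1.02, and a robust quasi-likelihood fit of Twist and Snail guide presence (5 residual degrees of freedom). Adjusted p-values are Benjamini-Hochberg over all genes tested, with a threshold of 0.05. Effects within each Twist background and their difference came from a fit of 4 groups. SE is the absolute log2 fold change divided by the square root of F. p-values measure the spread between these samples, which the series calls biological replicates; pooling assumes equal spread, which the control pair exceeds. The fit was tested on a single simulated data set, where the share of false calls (9%) came out above the nominal level. Changes of 0.5 on the log2 scale were recovered in part (72%). The simulated counts had no Twist effect and the same spread in every group, so they do not cover the wider control pair. DESeq2 1.42.0 was an alternative; plots used Python 3.11.15 and matplotlib 3.10.9.

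Members and lists were chosen with earlier results of these data known. Named genes were the targets, up to 12 rises and 12 falls with at least 1 CPM on the higher side and no overlap within either background, called or lowest-p members of each list, those with the lowest p for a difference between backgrounds, and neighbours of sna. The other called genes, htl, ths, sog, shg, crb and list members named for comparison were chosen after their values were seen. One gene whose effect differed between backgrounds is counted but not reported here. No guide, promoter or protein sequence was used here.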

Additional observations from a re-analysis of the deposited data

Results flagged for a closer look

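The Snail effect differed between libraries with and without Twist guides, by a test of the difference itself, in 14 genes (edgeR, adjusted p under 0.05), chosen by that test alone. In 6 of them the log2 effect with Twist guides minus that without was below 0: the FGF receptor gene htl at -2.74, the homeobox gene btn at -2.37, pyd3, of pyrimidine breakdown, at -2.01, Pu, the GTP cyclohydrolase gene, at -1.99, sano at -1.19 and Sans at -0.996. Those above 0 included Cyp12e1 at 1.19, stj at 0.979, CG7837 at 0.9, CG3860 at 0.899, the DNA ligase gene lig3 at 0.861, CG13868 at 0.838 and CG5059 at 0.828. btn, for example, stood at 2.20 and 1.11 CPM with control guides, 2.25 and 2.34 CPM with Snail guides, 15.5 and 19.7 CPM with Twist guides and 5.00 and 4.34 CPM with both pools, where twi was also lower. Pu likewise went from 11.0 and 9.48 CPM with Twist guides to 4.83 and 5.08 CPM with both pools, and from 1.28 and 1.49 to 2.61 and 2.75 CPM without Twist guides. htl was called whichever of the 8 libraries was omitted; each of the others named was lost in 5 or 6 of those 8 fits, in all cases without either Snail library (adjusted p up to 0.33), Twist replicate 2 (up to 0.24) or either library of both pools (up to 0.31).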

How the results depend on the processing

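The number of genes called for Snail guides moved from 28 (20 higher, 8 lower) to 78 (47 and 31) with no filter beyond 1 count, 107 (57 and 50) by DESeq2, 6 (6 and 0) against a fold of 1.5, 8 (7 and 1) at an FDR of 0.01, 8 (8 and 0) with no covariate for Twist guides, and 58 (43 and 15) as the mean over both backgrounds in a fit of 4 groups. Fitted on Snail and control libraries alone it was 6 (6 and 0), and on both-pool and Twist libraries alone 710 (329 and 381); 27 of the 28 were among the 710. The calls without Twist guides (26) became 218 with no filter, 78 by DESeq2, 7 against the fold and 7 at the stricter FDR. The genes called for Snail guides with Twist guides (84) became 419, 158, 9 and 14, and 157 after a correction for transcript length. The differing genes (14) became 236, 64, 1 and 1, and 39 with that correction. Leaving out 1 library gave 9 (without replicate 1 of both pools) to 345 (without control replicate 1) calls for Snail guides, 8 to 168 higher and 1 to 177 lower; 6 to 1443 without Twist guides, 9 to 975 with them and 1 to 948 for the difference. The cause was not tested. Scaling by DESeq2 size factors or library size, and the length correction, kept all 28 calls; the median of all genes moved by under 0.1. On both-pool and Twist libraries alone the log2 fold change of Cp1 was 0.02849 and the log2 fold change of CG12163 was -0.03458, opposite to their uncalled additive effects.

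Replicate numbers did not pair the libraries (correlations of deviations -0.148 to 0.142). With the replicate block 17 of the 28 genes were called (13 and 4). With control numbers crossed, a pairing added after seeing the data, 26 genes were called without Twist guides, 21 of them shared with the unblocked fit.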

Other observations

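Some of the called genes lie close together on a chromosome, a pattern noticed after the calls were made and not tested. nvy and CG3376, which both fell, are 10.5 kb apart on chromosome 2R with no tested gene between them. pyr and Tret1-2, which both rose, are 34.2 kb apart on 2R, but the 4 tested genes between them were not called: Buffy stood at 0.01, wal at -0.09, CG13197 at -0.16 and Ir48b at -0.44.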
